A study of Mus musculus with 22 samples.

Results

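The genes of respiratory complexes II to V were examined in RNA from the lumbar spinal cord of mice with knee joint pain. Members were all genes of the deposited table with the symbol of a subunit of succinate dehydrogenase (Sdha to Sdhd), of the cytochrome bc1 complex (Uqcr genes, Cyc1 and CYTB), of cytochrome c oxidase (Cox4 to Cox8 genes and COX1 to COX3) or of ATP synthase (Atp5 genes, ATP6 and ATP8). The rule found 53 of 17306 genes. Of these, 6 lie in mitochondrial DNA, 45 are nuclear genes and 2 are nuclear pseudogenes, Uqcrh-ps1 and Atp5c1-ps. Complex II has 4 members, complex III 10, complex IV 19 and complex V 20.

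Complex II takes electrons from succinate into the ubiquinone pool, complex III passes them to cytochrome c, and complex IV passes them on to oxygen. Complexes III and IV pump protons across the inner mitochondrial membrane, and complex V uses the return flow to make ATP, on which ion pumping in neurons relies. Subunits come from both genomes, except those of complex II, which are all nuclear.

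RNA was sequenced from the dorsal quadrant of the lumbar spinal cord (L4 to L6) on the side of the injected knee in 22 wildtype C57BL6J mice aged 12 to 14 weeks at collection, 1 library per mouse. All mice had received 1 mg of sodium iodoacetate (MIA) into the knee joint, and tissue was taken on day 30. SAFit2, an inhibitor of the stress-response co-chaperone FKBP51, was given at 100 mg/kg in a slow-release vesicular phospholipid gel (VPG). Mice without MIA were not analysed here. The Early SAFit2 (n = 5) and Early Vehicle (n = 6) mice received gel on days -3 and 4, with and without the inhibitor, and the Late SAFit2 (n = 5) and Late Vehicle (n = 6) mice on days 20 and 27. For the early groups the treatment label gives days 3 and 4 while the design text gives -3 and 4, and the Early SAFit2 titles read SAFit1 while their treatment label reads SAFit2. Early and late mice are separate batches per the labels, so a difference in level between early and late cannot be told apart from batch. Depth was 11352989 to 24433349 reads on genes per library, and levels are given as log2 CPM, the log2 of the read count scaled to a common library size.

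Several libraries stood apart in measures that bear on the members. The 6 mitochondrially encoded members took 8.12 to 8.95% of reads in the Late SAFit2 mice (8.54% ± 0.32, SD, n = 5) and 4.41 to 8.57% in the Late Vehicle mice (5.89% ± 1.49, SD, n = 6). The highest share of all libraries was that of Early Vehicle replicate 5, at 11.01%. Each library also had a slope of log2 CPM on the GC content of the transcript, from -0.49 to -0.05 per 10 points of GC in the Late SAFit2 mice and from -0.33 to 0.50 in the Late Vehicle mice. Late Vehicle replicates 6 and 2 had slopes of -0.33 and -0.17, on the side of the Late SAFit2 mice, and the other 4 Late Vehicle mice had slopes of 0.26 to 0.50. The neuronal RNA Bc1 took 3.31 to 16.5% of reads in the Late SAFit2 mice and 1.32 to 7.55% in the Late Vehicle mice. The summed level of the 6 neuronal markers, all in the table, none at 0 reads in any library and Snap25 the most abundant, was 4598, 4892, 4765, 4968 and 4945 CPM in Late SAFit2 replicates 1 to 5, and 3890, 4128 and 4635 CPM as the lowest, median and highest Late Vehicle value. The 6 did not move together: Snap25 (late log2 fold change 0.37), Slc17a6 (0.34) and Syt1 (0.12) were above 0 and Rbfox3 (-0.23), Tubb3 (-0.51) and Slc32a1 (-0.55) below. Of the 6, limma called Slc32a1 as lower (limma adjusted p = 0.0456), while voom called 1 as higher and 0 as lower. The 4 ependymal markers, Foxj1 the most abundant and Ccdc153, Dnah11 and Tmem212 at 0 reads in 3, 4 and 6 libraries, were all lower in the Late SAFit2 mice, also under each of the 3 other scalings, but 1 of 4 was higher without Late SAFit2 replicate 2. Of these limma called Foxj1 (-0.77) and Dnah11 (-2.23), and voom called Foxj1 alone. The value of Dnah11 depended on the pseudocount, with -1.18 at 0.5 and -0.49 at 2, and it was called with neither (limma adjusted p = 0.0552 and 0.0804), nor after quantile normalization (limma adjusted p = 0.0722). Their summed level was 17.1, 14.4, 14.5, 20.7 and 31.0 CPM in Late SAFit2 replicates 1 to 5, and 24.1, 37.3 and 50.5 CPM as the lowest, median and highest Late Vehicle value. Of the 3 endothelial markers, none at 0 reads and Flt1 the most abundant, 2 were below 0 and limma called Cldn5 (-0.53), while voom called 0 of the 3. Cldn5 was not called after median centring (-0.48, limma adjusted p = 0.0571) or quantile normalization (-0.51, limma adjusted p = 0.058), at values about as large. The sum of the 3 was 146, 138, 121, 106 and 113 CPM in the SAFit2 mice and 119.8, 147 and 169 CPM as the lowest, median and highest Vehicle value. The calls of Slc32a1, Foxj1, Dnah11 and Cldn5 were each lost without any 1 of Late SAFit2 replicates 2, 4 and 5 and Late Vehicle replicates 1, 3, 4 and 5. In those fits the log2 fold changes were -0.55 to -0.47, -0.83 to -0.65, -2.85 to -1.96 and -0.64 to -0.45 in turn. All 4 calls were lost at unchanged values without a variance trend and with only the 11 late mice. Without both Late SAFit2 replicates 3 and 5 they were lost at -0.55, -0.81, -3.30 and -0.45. They were also lost after the GC and length trends were removed, where Slc32a1 was at 0.03, Foxj1 at -0.21 and Cldn5 at -0.08, but Dnah11 at -2.2975, about as far from 0 as before. Without Early SAFit2 replicate 4 or Early Vehicle replicate 2 the calls of Slc32a1, Dnah11 and Cldn5 were lost, without Early SAFit2 replicate 5 or Early Vehicle replicate 3 those of Slc32a1 and Dnah11, without Late SAFit2 replicate 3 or Early Vehicle replicate 6 those of Slc32a1 and Cldn5, and without Late SAFit2 replicate 1 that of Dnah11. Leaving out an early mouse did not change these log2 fold changes. The lists of oligodendrocytes, astrocytes and microglia each had 2 of 4 markers above 0 and 2 below. The part of these measures in the results was not tested, other than by the settings named with each result. In bulk tissue, fewer cells of a type and less RNA per cell cannot be told apart.

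Levels of different genes are compared here per kilobase of transcript, as the mean log2 CPM per kilobase over the 22 libraries. The length is that of a single annotated transcript per gene, so each level depends on which transcript was chosen. The mitochondrially encoded members had the 6 highest levels of all members, from 12.44 for ATP8 to 14.17 for ATP6. ATP6 (SD 0.69), COX3 (13.92, SD 0.65), COX2 (13.78, SD 0.49) and COX1 (13.62, SD 0.41) lay within their spread over the 22 libraries of each other. That spread pools early and late mice and leaves out that the genes share libraries. By group, ATP6 and COX1 were at 15.05 and 13.96 in the Late SAFit2 and 14.27 and 13.31 in the Late Vehicle mice. In the Early SAFit2 mice they were at 13.66 and 13.57, and in the Early Vehicle mice at 13.76 and 13.70. The order of the 4 was not the same in all groups. COX3 was the lowest of the 4 in the Early SAFit2 (13.45) and Early Vehicle mice (13.54) and the second highest in the Late SAFit2 (14.78) and Late Vehicle mice (13.99). Among the nuclear members the order began with Cox4i1, the widely expressed form of subunit IV (9.63, SD 0.23), and Atp5b, the catalytic beta subunit of ATP synthase (9.51, SD 0.19), whose levels lay within their spread of each other. Cox4i1 was above Atp5b in each group mean. The highest nuclear members of complexes III and II were the hinge protein Uqcrh (8.66, SD 0.35) and the flavoprotein Sdha (7.67, SD 0.17). The median level of the nuclear members was 6.08 in complex II, 7.16 in complex III, 7.43 in complex IV and 7.84 in complex V.

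**Figure D1:**
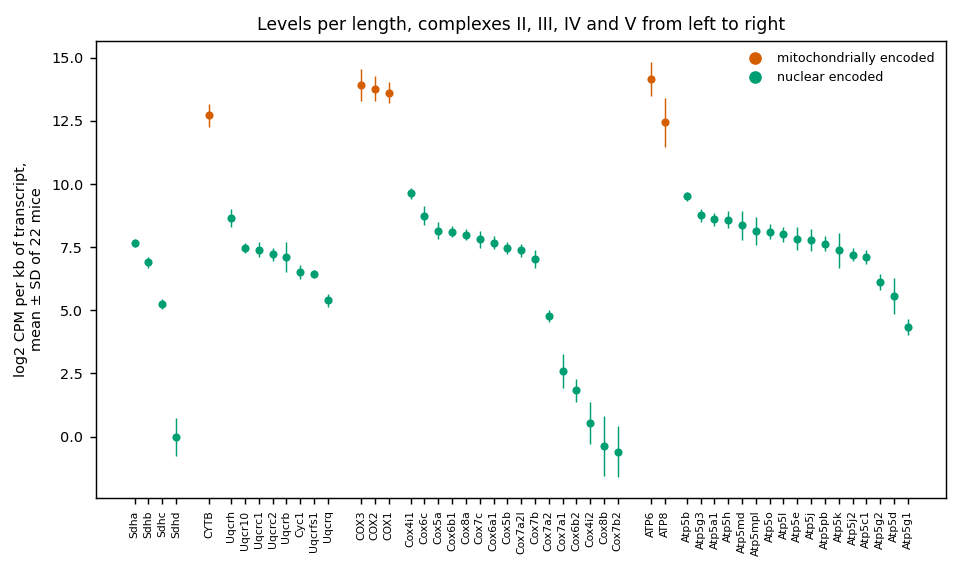
Level of each nuclear and mitochondrially encoded member as log2 CPM per kilobase of transcript, mean ± SD of the 22 mice, ordered by complex. The mitochondrially encoded members lie between 12.44 and 14.17 and the highest nuclear member, Cox4i1, at 9.63.

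Complex IV isoforms known from other tissues were low in these samples per kilobase of transcript. Cox4i2, the oxygen-responsive form known from lung, had 0.54 log2 CPM per kilobase against 9.63 for Cox4i1. The testis form Cox6b2 had 1.83 against 8.11 for Cox6b1, and Cox7b2 had -0.60 against 7.03 for Cox7b. The heart and muscle form Cox7a1 had 2.61, below Cox7a2 (4.76) and Cox7a2l (7.37). The heart and muscle form Cox8b had -0.38 against 7.99 for Cox8a and was the 1 member that did not pass the filter on low values, which 52 of the 53 members passed. Cox6a1 had 7.68, and neither Cox6a2 nor Cox8c was among the members. Of the 3 genes for the ATP synthase c subunit, which forms the rotating ring in the membrane, Atp5g3 was at 8.77, Atp5g2 at 6.12 and Atp5g1 at 4.33. The order of the last 2 depends on the transcript chosen, of 731 bases for Atp5g2 and 4715 for Atp5g1. Without division by length Atp5g1 was the higher in each group, with mean log2 CPM of 6.38 to 6.82 against 5.44 to 5.86. Sdhd, 1 of the membrane anchors of complex II, had -0.01 log2 CPM per kilobase, the lowest of the 4 complex II subunits. The other complex II subunits were at 5.26 (Sdhc), 6.90 (Sdhb) and 7.67 (Sdha), and whether the counts miss reads of Sdhd was not tested. The pseudogenes had 0.80 (Uqcrh-ps1) and -0.91 (Atp5c1-ps).

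ATP8 and ATP6, both of complex V, are neighbours on 1 strand of mitochondrial DNA. Their reading frames share 43 bases (GRCm38, the build of all coordinates here, chrM:7927-7969, + strand), which are 21.1% of ATP8 and 6.31% of ATP6, so reads within them cannot be given to 1 gene alone. The shared bases are shown because ATP8 had the largest log2 fold change of the members in the late comparison, with capitals for the start codon of ATP6 and the stop codon of ATP8.
ATP8/ATP6 overlap: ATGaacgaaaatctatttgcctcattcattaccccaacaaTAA
Further uncertainty in assigning reads comes from near copies. A search with each of the 53 members found, for 21, a stretch of at least 150 bases with at least 95% identity to an annotated gene that does not overlap them. The pseudogene Uqcrh-ps1 is among the 21 through its match to Uqcrh (191 bases, 95.3%), while the search with Uqcrh found none. Among the mitochondrially encoded members those with a match are COX1, COX2, COX3 and ATP6, but not CYTB or ATP8. Exonic bases were shared with another gene in 17 of the 53 members, in 13 of them with a gene on the opposite strand. Whether strand was used in counting is not given in the sources used here.

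The late comparison asks whether the inhibitor, given once joint pain was established, goes with other levels of these genes. The mitochondrially encoded subunits were higher in the Late SAFit2 than in the Late Vehicle mice, by log2 fold changes of 0.65 to 1.41 (median 0.78), except that COX1 and ATP6 turned below 0 after quantile normalization, and 4 of the 6 passed the test. The 6 share their DNA and the same libraries, and the same Late Vehicle mouse was the highest of its group in each, so they are not independent results. The nuclear subunits lay on both sides of 0, with 24 of 44 tested above and 20 below and a median log2 fold change of 0.03, and 2 rose and 2 fell. Those of complex V had a median of 0.25, from 0.20 to 0.31 under the 3 other scalings, with 13 of 17 above 0. A call required a Benjamini-Hochberg adjusted p under 0.05 over all 16765 genes tested with limma and a fold change of at least 1.2. By that rule 5.33% of all genes tested were called higher (894) and 6.72% lower (1127), with a median log2 fold change of -0.05, and of the 52 members tested 6 were called higher and 2 lower. The split of all calls moved with the scaling, to 1139 higher and 924 lower after median centring and to 725 higher and 1368 lower with library sizes without Bc1 and mitochondrial genes. With limma voom on read counts it was 484 higher and 392 lower, and of the members 7 were called higher and 1 lower.

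**Figure D2:**
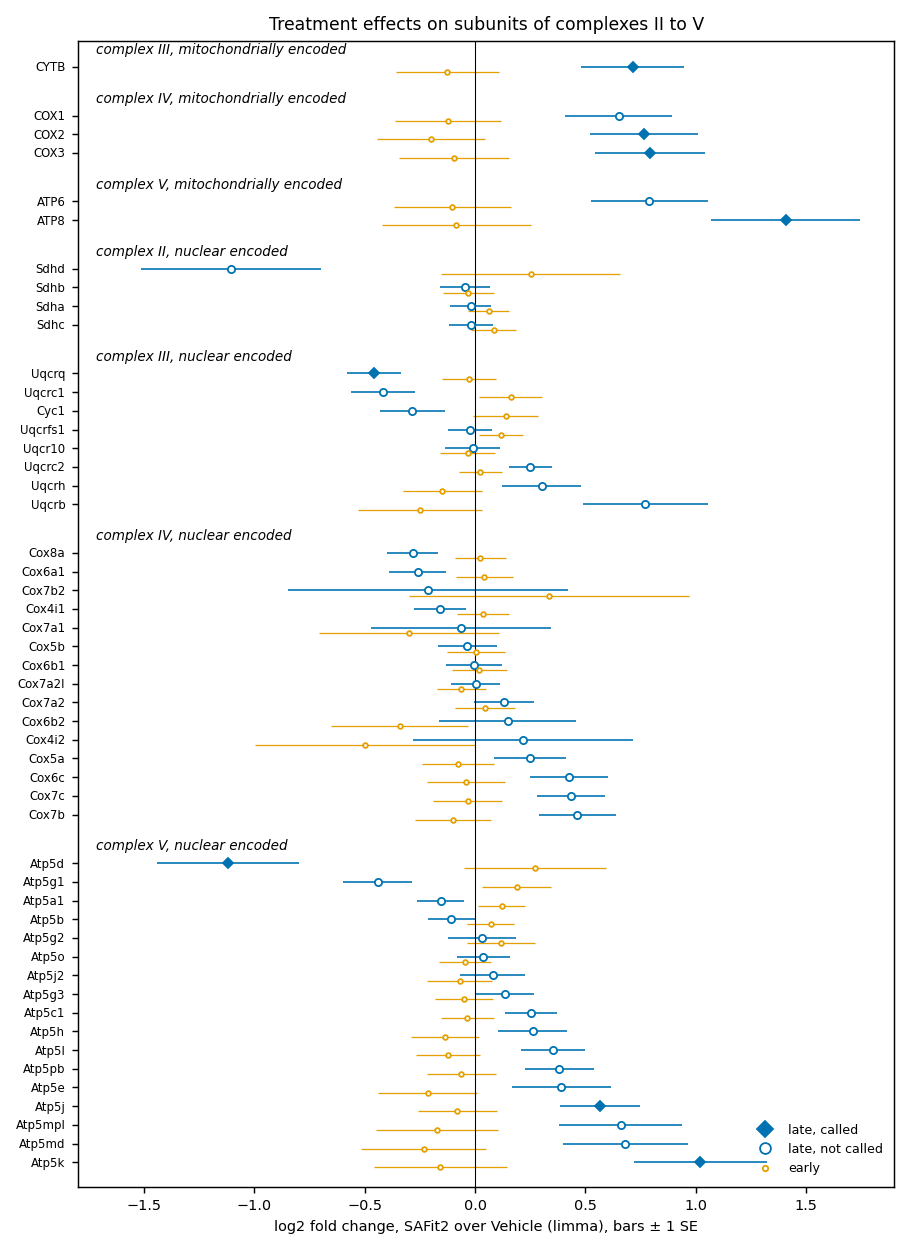
Log2 fold change of SAFit2 over Vehicle with its standard error (limma) for each nuclear and mitochondrially encoded member tested, by complex, in the late comparison (diamonds called, circles not called) and in the early comparison (small circles). The 6 mitochondrially encoded members lie at 0.65 to 1.41 in the late comparison, while those of the early comparison lie at -0.20 to -0.09, and after quantile normalization, not drawn here, COX1 and ATP6 turn to -0.16 and -0.013 in the late comparison.

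CYTB (Entrez 17711, chrM:14145-15288) encodes cytochrome b, the 1 subunit of complex III that is made inside the mitochondrion and that carries its quinone sites. Its log2 CPM in Late SAFit2 replicates 1 to 5 was 13.36, 13.41, 13.26, 13.37 and 13.59, and in the 6 Late Vehicle mice the lowest, median and highest were 12.38, 12.58 and 13.37. All 5 SAFit2 mice lay above the Vehicle median, and the groups overlapped through Late Vehicle replicate 6, which lay within the SAFit2 range. The log2 fold change was 0.71 ± 0.23 (SE), with a limma adjusted p of 0.0473.

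COX1, COX2 and COX3 encode the catalytic core of complex IV, in which COX1 holds the site of oxygen reduction, COX2 takes the electrons from cytochrome c and COX3 stabilises the core. COX1 (Entrez 17708, chrM:5328-6872) had a log2 CPM of 14.60, 14.64, 14.56, 14.55 and 14.61 in Late SAFit2 replicates 1 to 5, and 13.59, 13.86 and 14.56 as the lowest, median and highest Late Vehicle value. The 5 SAFit2 values were close together at the top of the range, with Late Vehicle replicate 6 among them. COX2 (Entrez 17709, chrM:7013-7696) had 13.77, 13.81, 13.61, 13.71 and 13.98 in the SAFit2 mice, and 12.65, 12.90 and 13.74 as the lowest, median and highest Vehicle value. COX3 (Entrez 17710, chrM:8607-9390) had 14.48, 14.37, 14.22, 14.36 and 14.70 in the SAFit2 mice, and 13.04, 13.54 and 14.32 as the lowest, median and highest Vehicle value. For both, every SAFit2 mouse lay above the Vehicle median, and Late Vehicle replicate 6 lay within the SAFit2 range. COX3 rose by a log2 fold change of 0.79 ± 0.25 (SE, limma adjusted p = 0.0442) and COX2 by 0.77 ± 0.25 (SE, limma adjusted p = 0.0453). COX1 did not pass, at 0.65 ± 0.24 (SE, limma adjusted p = 0.0665), and its exact permutation p for the late groups alone was 0.00866, the same as for COX2 and COX3.

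ATP6 and ATP8 encode subunits of the membrane part of complex V, where ATP6 forms the path for protons. ATP6 (Entrez 17705, chrM:7927-8607) had a log2 CPM of 14.45, 14.53, 14.18, 14.45 and 14.89 in Late SAFit2 replicates 1 to 5, and 13.06, 13.61 and 14.51 as the lowest, median and highest Late Vehicle value. ATP8 (Entrez 17706, chrM:7766-7969) had 11.11, 11.38, 10.82, 11.72 and 12.32 in the SAFit2 mice, and 9.21, 9.75 and 11.42 as the lowest, median and highest Vehicle value. All SAFit2 mice were above the Vehicle median for both genes, replicate 5 was the highest of them, and Late Vehicle replicate 6 again overlapped with the SAFit2 mice. ATP8 rose by a log2 fold change of 1.41 ± 0.34 (SE, limma adjusted p = 0.0324, exact permutation p = 0.0195). ATP6 did not pass, at 0.79 ± 0.27 (SE, limma adjusted p = 0.0512, exact permutation p = 0.013).

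**Figure D3:**
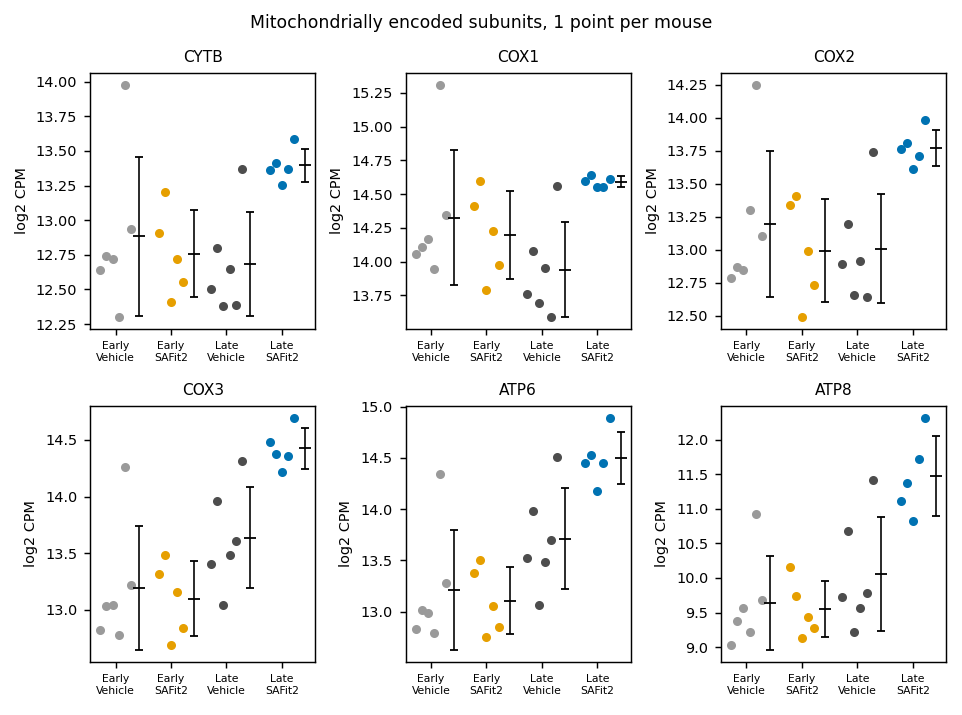
Log2 CPM of the 6 mitochondrially encoded members in each of the 22 mice (points), with the mean ± SD of each group. Late SAFit2 mice lie high in each panel, 1 Late Vehicle mouse (replicate 6) lies with them, and 1 Early Vehicle mouse (replicate 5) lies above the other early mice.

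The number of mitochondrial calls changed when single libraries were left out, while the median log2 fold change of the 6 was 0.67 to 0.92 and that of ATP8 1.19 to 1.68 without each library in turn. None was made without Late SAFit2 replicate 2, 4 or 5 or Late Vehicle replicate 1, 3, 4 or 5 (0 each, where 1 to 8 of all 16765 genes were called). The count was 1 without Late SAFit2 replicate 3, Early SAFit2 replicate 4 or 5 or Early Vehicle replicate 2, 3 or 6 (7.1 to 8.9% of all genes). All 6 were made without Late Vehicle replicate 6 or Early Vehicle replicate 5, where 29.7% and 17.4% of all genes were called, against 12.1% with all libraries. All 6 passed with limma voom, where 5.2% of all genes were called. None of the 6 passed with only the 11 late mice in the limma fit (nominal p under 0.05 in all 6), where 0 of all 16765 genes were called. After quantile normalization 1 passed, beside 7.3% of all genes. There the median log2 fold change of the 6 was 0.09, and those of COX1 and ATP6 turned to -0.16 and -0.013. Transcripts of mitochondrial DNA are low in GC, from 31.9% for ATP8 to 39.9% for COX1, against a median of 50.25% of the genes tested. After the trend on GC content and transcript length had been removed from each library, the median of the 6 was 0.19, ATP8 was at 0.73, and limma called 0 of the 6 and 0 of all 16213 genes, with 2277 genes at a nominal p under 0.05. A real effect that ran along GC content would be removed by that step too, and the part of the GC slopes in the result was not tested.

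Complex II is made of nuclear subunits alone, and none of its 4 members was called with limma in the late comparison (1 at a nominal p under 0.05, 0 called with voom). Sdha, the flavoprotein that oxidises succinate, had a log2 CPM of 9.47, 9.35, 9.35, 9.23 and 9.18 in Late SAFit2 replicates 1 to 5, and 9.27, 9.33 and 9.43 as the lowest, median and highest Late Vehicle value. The groups overlapped over most of their range. Sdha had a log2 fold change of -0.02, the iron-sulfur subunit Sdhb of -0.05 and the membrane anchor Sdhc of -0.02, each within the spread between mice, and all 3 turned above 0 after median centring (0.03, 0.01 and 0.04). Sdhd (Entrez 66925, chr9:50596357-50603812), the other anchor, had 0.29, -0.23, -0.30, -0.71 and -1.15 in the SAFit2 mice and -0.81, 0.99 and 1.35 as the lowest, median and highest Vehicle value. Every SAFit2 mouse lay below the Vehicle median, and Late Vehicle replicate 2 lay among the lowest. Its log2 fold change of -1.11 ± 0.41 (SE) did not pass, with a limma adjusted p of 0.0646 and an exact permutation p of 0.0325. The value depended on the pseudocount, with -0.83 at 0.5 and -0.44 at 2. Sdhd was called with a pseudocount of 2 (limma adjusted p = 0.0499), with library weights (limma adjusted p = 0.00542) and without Early Vehicle replicate 5, Late SAFit2 replicate 1 or Late Vehicle replicate 2 or 6.

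In nuclear complex III, 1 of the 8 subunits fell and none rose (12.5% and 0.0%, beside 6.72% and 5.33% of all genes), with a median log2 fold change of -0.02 (0.04 after median centring). Uqcrq (Entrez 22272, chr11:53427922-53430831), a small subunit that lies next to cytochrome b, had a log2 CPM of 5.93, 5.62, 5.89, 5.41 and 5.94 in Late SAFit2 replicates 1 to 5, and 6.003, 6.26 and 6.35 as the lowest, median and highest Late Vehicle value. All 5 SAFit2 mice lay below all 6 Vehicle mice. It fell with a log2 fold change of -0.46 ± 0.12 (SE, limma adjusted p = 0.0331, exact permutation p = 0.00433). Of all genes tested, 0.853% had late groups that did not overlap in the higher and 0.859% in the lower direction, and of the members 1 did in each, Cox5a and Uqcrq. Uqcrb, the ubiquinone-binding subunit, had the lowest p in the other direction, with 6.63, 6.71, 6.59, 6.76 and 7.20 in the SAFit2 mice and 5.50, 5.81 and 6.81 as the lowest, median and highest Vehicle value. The SAFit2 mice were all above the Vehicle median, but Late Vehicle replicate 6 was higher than 4 of them. Its log2 fold change of 0.77 ± 0.28 (SE) did not pass (limma adjusted p = 0.0639), nor did that of Uqcrh, 0.30 (limma adjusted p = 0.229). After the GC and length trends were removed they were 0.32 for Uqcrb and 0.15 for Uqcrh. Both were called with library weights (limma adjusted p = 0.00117 and 0.0318), and Uqcrb also without Early Vehicle replicate 4 or 5 or Late Vehicle replicate 2 or 6. The large core proteins moved apart without passing, with log2 fold changes of -0.42 for Uqcrc1 and 0.25 for Uqcrc2.

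None of the 15 nuclear subunits of complex IV that were tested was called with limma (4 at a nominal p under 0.05, 3 of them higher, and 0 called with voom), and their median log2 fold change was 0.00. Cox7c, a small subunit in the membrane, had the lowest p among those higher, with a log2 CPM of 7.38, 7.38, 7.18, 7.08 and 7.46 in Late SAFit2 replicates 1 to 5 and 6.60, 6.75 and 7.20 as the lowest, median and highest Late Vehicle value. Its SAFit2 mice lay above the Vehicle median, and 2 of them lay within the Vehicle range. Cox8a, another small membrane subunit, had the lowest p among those lower, with 7.23, 7.05, 6.98, 6.75 and 7.16 in the SAFit2 mice and 7.11, 7.33 and 7.51 as the lowest, median and highest Vehicle value. Every Cox8a value of the SAFit2 mice lay below the Vehicle median. The log2 fold changes were 0.43 ± 0.16 (SE, limma adjusted p = 0.0592) for Cox7c and -0.28 ± 0.12 (SE, limma adjusted p = 0.0908) for Cox8a. After the GC and length trends were removed they were 0.14 and -0.04, and with the replicate block as well 0.15 and -0.01. Both were called with library weights (limma adjusted p = 0.00233 and 0.0153), and Cox7c also with the replicate block (limma adjusted p = 0.0383) and without Early Vehicle replicate 1 or 5 or Late Vehicle replicate 2 or 6. Cox5a, a subunit on the matrix side, was higher in all 5 SAFit2 than in all 6 Vehicle mice, with a log2 fold change of 0.25, an exact permutation p of 0.0152 and a limma adjusted p of 0.286. Cox4i1 had a log2 fold change of -0.16 (limma adjusted p = 0.337), which was 0.11 after the GC and length trends were removed.

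Nuclear complex V held the other 3 nuclear calls, 2 higher and 1 lower among 17 subunits (11.8% and 5.9%, beside 5.33% and 6.72% of all genes), with a median log2 fold change of 0.25 and 13 of the 17 above 0. Atp5k (Entrez 11958, chr5:108433244-108434448), subunit e of the membrane part, had a log2 CPM of 6.57, 6.85, 6.51, 6.66 and 7.06 in Late SAFit2 replicates 1 to 5, and 5.13, 5.43 and 6.60 as the lowest, median and highest Late Vehicle value. Every SAFit2 mouse lay above the Vehicle median, and Late Vehicle replicate 6 lay above 2 of them. Atp5j (Entrez 11957, chr16:84827866-84835625), coupling factor 6 of the stalk, had 7.96, 7.96, 7.81, 8.05 and 8.30 in the SAFit2 mice, and 7.13, 7.28 and 8.03 as the lowest, median and highest Vehicle value. Again the SAFit2 mice were above the Vehicle median, with Late Vehicle replicates 6 and 2 within their range. Atp5k rose by a log2 fold change of 1.02 ± 0.30 (SE, limma adjusted p = 0.0382, exact permutation p = 0.0195), and Atp5j by 0.57 ± 0.18 (SE, limma adjusted p = 0.045, exact permutation p = 0.0281).

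Atp5d (Entrez 66043, chr10:80138632-80145818), the delta subunit of the central stalk of ATP synthase, went the other way. Its log2 CPM was 5.56, 5.07, 5.18, 4.37 and 4.26 in Late SAFit2 replicates 1 to 5, and 4.90, 6.25 and 6.68 as the lowest, median and highest Late Vehicle value. All SAFit2 mice lay below the Vehicle median, and Late Vehicle replicates 6 and 2 lay within the SAFit2 range. It fell with a log2 fold change of -1.12 ± 0.32 (SE, limma adjusted p = 0.0361, exact permutation p = 0.026). The catalytic subunit Atp5b, with the highest level per kilobase in nuclear complex V, had a log2 fold change of -0.11 (limma adjusted p = 0.483).

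**Figure D4:**
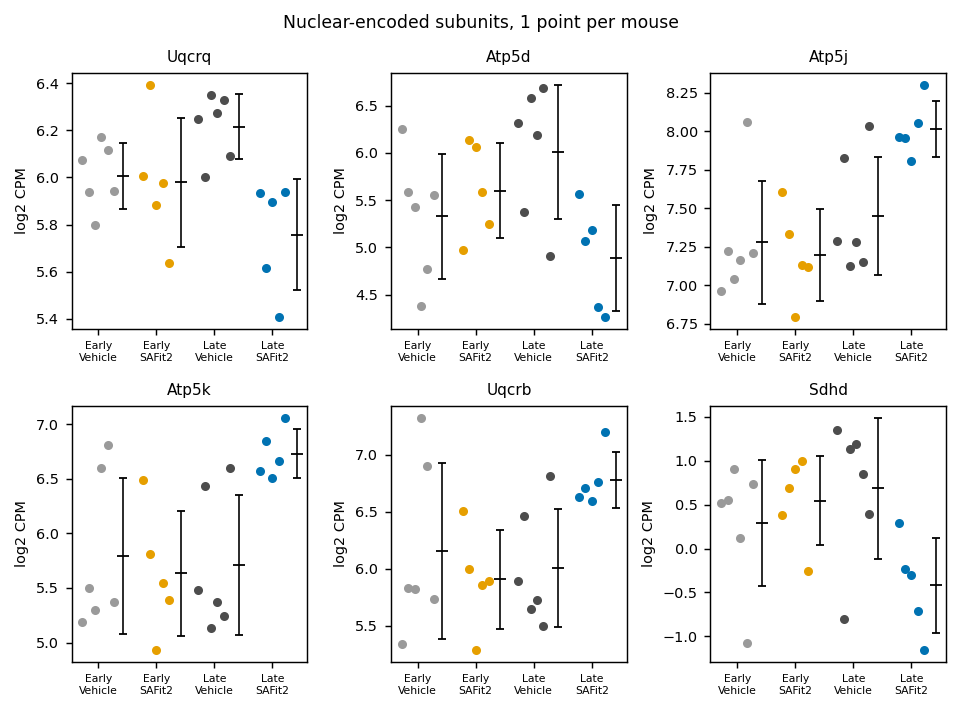
Log2 CPM of the 4 nuclear members called in the late comparison (Uqcrq, Atp5d, Atp5j, Atp5k) and of Uqcrb and Sdhd in each mouse (points), with the mean ± SD of each group. In Uqcrq the late groups do not overlap, and in each of the others at least 1 Late Vehicle mouse lies within the Late SAFit2 range.

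The number of nuclear calls changed in the same way, while without each library in turn the log2 fold change was 0.904 to 1.197 for Atp5k, 0.49 to 0.68 for Atp5j, -1.34 to -0.96 for Atp5d and -0.50 to -0.37 for Uqcrq. No nuclear member was called without Late SAFit2 replicate 2, 4 or 5 or Late Vehicle replicate 1, 3, 4 or 5 (0 each). Of the 44, 7 were called without Late SAFit2 replicate 1, 10 without Early Vehicle replicate 5, 10 without Late Vehicle replicate 2 and 17 without Late Vehicle replicate 6, where 21.1%, 17.4%, 22.6% and 29.7% of all genes were called in turn, against 12.1% with all libraries. The call of Atp5j was also lost without Early SAFit2 replicate 4 or 5 or Early Vehicle replicate 2, 3 or 6, at the same log2 fold change of 0.57. With limma voom 1 nuclear member was called higher, Atp5k, and 1 lower, Uqcrq, with 18 at a nominal p under 0.05. At a nominal p under 0.05 in the limma fit, 15.6% of all genes were higher and 19.0% lower, and of the 44 nuclear members 12 (27.3%) were higher and 6 (13.6%) lower.

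Across the 44 nuclear members the late log2 fold change had a Pearson correlation of -0.36 with transcript GC content (Spearman -0.38) and of -0.44 with log2 transcript length (Spearman -0.49). Over the 16213 genes with such a value the same correlations were -0.63 with GC content and 0.03 with length. These are correlations across genes, which share libraries and are not independent replicates. After the GC and length trends were removed, limma called 0 nuclear members, and the log2 fold changes were 1.00 for Atp5k, 0.74 for Atp5j, -0.52 for Uqcrq and -0.68 for Atp5d.

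**Figure D5:**
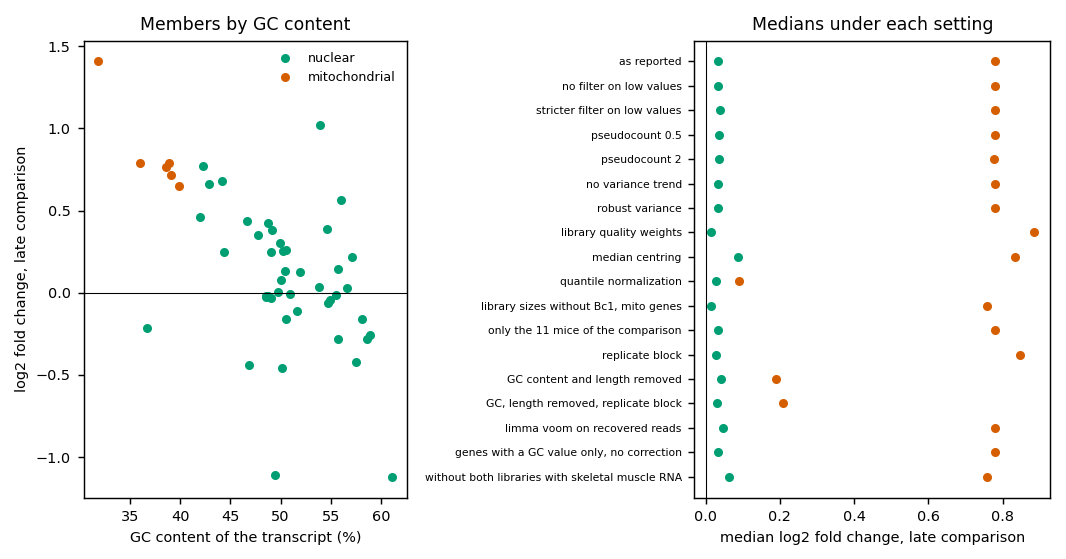
Late log2 fold change of each nuclear and mitochondrially encoded member against the GC content of its transcript in percent (left), and the median late log2 fold change of the nuclear and of the mitochondrially encoded members under each processing setting (right). The mitochondrially encoded median is 0.78 as reported, 0.19 after the GC and length trends were removed and 0.09 after quantile normalization.

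Skeletal muscle RNA marked 2 of the 5 Late SAFit2 libraries. Of the 12 muscle markers 11 were in the table, Pvalb, which neurons also express, was the most abundant, and Tnnc2 was at 0 reads in 13 of the 22 libraries. All 11 had late log2 fold changes above 0, with 7 at a nominal p under 0.05 with limma and 6 with voom. With limma 1 was called higher, Tnnt3 (3.30, limma adjusted p = 0.0476), and with voom 0 of the 11. Their summed level was 149, 139, 419, 119 and 310 CPM in Late SAFit2 replicates 1 to 5, 84.5 to 122 CPM in the Late Vehicle mice and 62.2 to 124 CPM in the early mice. Without Pvalb it was 266 and 195 CPM in replicates 3 and 5 and 2.53 to 13.8 CPM in the other 20. Cox8b, the muscle form of subunit VIII, had a log2 CPM of -1.87 in replicate 3 and was at the floor of -3.154 (0 reads) in replicate 5. The heart and muscle form Cox7a1 had 2.215 in replicate 3 and 0.17 in replicate 5, and 0.94 to 1.73 in the Late Vehicle mice. Without both libraries limma called 0 nuclear and 0 mitochondrially encoded members and 1 of all genes (4299 genes at a nominal p under 0.05), at medians of 0.06 and 0.76, and the part of muscle RNA in the result was not tested further.

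Promoters of the nuclear members were read from RefSeq (GRCm38.p6), where 35 of the 47 nuclear members and pseudogenes had an entry, over 250 bases before and 30 after the start. Their median GC content was 56.4%, against 52.5% over all 27025 promoters. Motif letters were searched on both strands. The letters GCGCANGCG, bound by NRF1, were in 10 of the 35 (28.6%) and in 6.19% of all promoters, and the letters CCGGAAG of the ETS family, to which Gabpa belongs, were in 11 (31.4%) and in 8.70%. The YY1 letters AANATGGCG were in 1 (2.9%) and in 1.91%, and CCAAT was in 20 (57.1%) and in 36.6%. A match describes the letters and is no evidence of binding. The windows of Atp5k (- strand, chr5:108434419-108434649, cut 30 bases into the annotated gene) and Atp5j (- strand, chr16:84835596-84835875) are shown because these are the nuclear members that rose, with capitals for 2 overlapping matches to the NRF1 letters, 1 on each strand, in Atp5k and none in Atp5j. The full window of Atp5k also holds 1 match to the ETS letters, in the part not shown, and that of Atp5j holds none.
Atp5k promoter: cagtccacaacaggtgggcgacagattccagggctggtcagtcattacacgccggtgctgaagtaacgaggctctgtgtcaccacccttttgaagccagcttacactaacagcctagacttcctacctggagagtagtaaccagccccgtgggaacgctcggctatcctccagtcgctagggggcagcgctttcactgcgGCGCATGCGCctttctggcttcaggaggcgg
Atp5j promoter: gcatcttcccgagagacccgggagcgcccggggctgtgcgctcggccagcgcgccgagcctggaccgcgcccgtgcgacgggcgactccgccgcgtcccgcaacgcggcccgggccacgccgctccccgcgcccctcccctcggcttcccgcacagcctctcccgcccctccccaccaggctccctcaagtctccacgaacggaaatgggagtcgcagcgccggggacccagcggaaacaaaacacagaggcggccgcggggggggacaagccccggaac
Atp5j and Gabpa, which lie head to head on opposite strands, share 397 exonic bases between chr16:84834925 and 84835543, 12.7% of the exonic bases of Atp5j. Both were called higher in the late comparison, and how far reads from 1 count for the other was not tested.

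The early comparison asks whether the inhibitor, given around the start of joint pain, goes with other levels of these genes on day 30. By the authors' account a gel releases the inhibitor for about a week, and only the late mice were in its active phase. No subunit of any complex passed: limma called 0 of the 52 members and 0% of all genes tested (0), with voom calling 0 as well. At a nominal p under 0.05 there were 0 members in either direction with limma or voom, against 0.942% of all genes higher and 1.54% lower with limma. The mitochondrially encoded members had log2 fold changes of -0.20 to -0.09 (median -0.11, but 0.08 after quantile normalization and 0.11 without Early Vehicle replicate 5), and the nuclear members a median of -0.03, beside 0.01 for all genes. ATP8 had a log2 CPM of 10.16, 9.74, 9.13, 9.44 and 9.28 in Early SAFit2 replicates 1 to 5, and 9.03, 9.47 and 10.93 as the lowest, median and highest Early Vehicle value. The SAFit2 values lay inside the Vehicle range, whose highest mouse was Early Vehicle replicate 5. Among the members the c-ring gene Atp5g1 had the lowest p, with 6.44, 6.87, 6.72, 6.63 and 6.41 in the Early SAFit2 mice and 6.09, 6.47 and 6.60 as the lowest, median and highest Early Vehicle value. Of its SAFit2 mice 3 lay above all Vehicle mice and 2 below the Vehicle median. Its log2 fold change was 0.19 ± 0.16 (SE), with an exact permutation p of 0.136 and a limma adjusted p of 1.

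Whether the effect of the inhibitor differed between early and late was tested as the early minus the late log2 fold change. The timings also differ in the time from the last gel to day 30, which cannot be told apart from the start of treatment. No member passed, since limma called 0 of the 52 members and 0% of all genes tested, and voom called 0 members, with 18 at a nominal p under 0.05. At a nominal p under 0.05 with limma, 5 members were higher and 14 lower, where 14.0% of all genes were higher and 10.9% lower. All 6 mitochondrially encoded members were among the 14 lower, with differences of -1.49 to -0.77 (median -0.89), and the nuclear members had 5 higher and 8 lower (median -0.08, beside 0.05 for all genes). ATP8 had the lowest p, at a difference of -1.49 ± 0.48 (SE, limma adjusted p = 0.12), followed by Atp5d at 1.39 ± 0.46 (SE, limma adjusted p = 0.12). Without Late Vehicle replicate 6, 12 members passed, 4 higher and 8 lower, where 1508 of all genes (9.0%) were higher and 1005 (6.0%) lower.

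The mean of the early and late effects, counted at a nominal p under 0.05, was higher in 6.03% and lower in 7.18% of all genes tested. Of the members 1 was higher and 1 lower. None was called with limma or with voom, which had 5 members at a nominal p under 0.05, 2 nuclear and 3 mitochondrially encoded. ATP8 had a mean log2 fold change of 0.66 ± 0.24 (SE, limma adjusted p = 0.325) and Uqcrq one of -0.24 ± 0.09 (SE, limma adjusted p = 0.325).

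The Vehicle groups show how the members stood without the inhibitor at both timings. Nuclear subunits were higher in the Late than in the Early Vehicle mice in 35 of 44, with a median log2 difference of 0.21, and 8 passed the test, where 3.29% of all genes were higher (552) and 5.82% lower (975) at a median of 0.01. The 8 were Sdha (0.28), Sdhc (0.30), Uqcrc2 (0.30), Cox4i1 (0.38), Cox6a1 (0.40), Atp5a1 (0.54), Atp5b (0.34) and Atp5o (0.38), and no nuclear member was lower. Atp5a1, the alpha subunit beside the catalytic beta subunit, had the lowest p (limma adjusted p = 0.000994). The mitochondrially encoded members had differences of -0.38 to 0.50 with 3 on each side of 0, and limma called 0 of the 6 (0 at a nominal p under 0.05, 0 called and 3 nominal with voom), but 2 as higher without Early Vehicle replicate 5 and 3 as higher after the GC and length trends were removed. Batch and timing cannot be told apart here. Summed levels of some cell type markers differed as well. All 4 astrocyte markers, none at 0 reads and Slc1a2 the most abundant, were higher in the Late Vehicle mice, but 3 of 4 after quantile normalization or with library sizes without Bc1 and mitochondrial genes. Their sum was 3990, 4139 and 4711 CPM as the lowest, median and highest Late Vehicle value and 3066, 3392 and 3972 CPM in the Early Vehicle mice, so that the groups did not overlap. The 4 microglial markers, none at 0 reads and Csf1r the most abundant, were also above 0, with sums of 166 to 191 CPM (median 182) against 126 to 167 CPM (median 149). So were the 4 red cell markers in the table of 5 listed, none at 0 reads and Hba-a2 the most abundant, with sums of 494 to 914 CPM (median 722) against 412 to 586 CPM (median 442). Endothelial markers were above 0 in 3 of 3 and ependymal ones in 4 of 4, but in 2 of 3 and 3 of 4 with library sizes without Bc1 and mitochondrial genes. Of the astrocyte, endothelial and red cell markers, limma called Slc1a2 (0.46, limma adjusted p = 0.0185), Pecam1 (0.48, limma adjusted p = 0.0403) and Hbb-bs (0.64, limma adjusted p = 0.03) as higher. With voom 1 marker in each of these 3 lists was called higher, and limma and voom called 0 microglial and 0 ependymal markers. Of the 6 neuronal markers 4 were above 0, and limma and voom each called 2 as higher. With limma these were Tubb3 (0.68, limma adjusted p = 0.0162) and Slc32a1 (0.59, limma adjusted p = 0.0285). The sums overlapped, with 3890 to 4635 CPM (median 4128) in the Late and 3596 to 4556 CPM (median 4093) in the Early Vehicle mice. After quantile normalization 3 of the 6 were above 0, and limma called 0 as higher and 1 as lower. The call of Slc32a1 was also lost with library sizes without Bc1 and mitochondrial genes and without Early Vehicle replicate 5 or Late Vehicle replicate 1, 3, 4 or 5. The 4 oligodendrocyte markers, none at 0 reads and Mbp the most abundant, had 2 above 0 and 2 below, but 0 above after quantile normalization, and limma and voom called none (0 at a nominal p under 0.05 with each). Their sum was 29265 and 30882 CPM in Early Vehicle replicates 4 and 5, 14774 to 19303 CPM in the other 4 Early Vehicle mice and 15683 to 19359 CPM in the Late Vehicle mice, and Bc1 took 11.9% of reads in Early Vehicle replicate 4 and 0.94 to 4.28% in the other 5. The part of these cell types in the differences was not tested. The split of all calls was 1198 higher and 816 lower after median centring, 325 and 839 after quantile normalization and 143 and 1640 with library sizes without Bc1 and mitochondrial genes, which moved the median of all genes to -0.11, and the nuclear members called were 13, 0 and 1 in turn, all higher, at medians of 0.28, 0.07 and 0.09. The count of nuclear members was 1 without Early Vehicle replicate 2 or 3 or Late Vehicle replicate 1 or 4, 2 without Early Vehicle replicate 1 or 6 or Late Vehicle replicate 5, 3 without Late Vehicle replicate 3 and 5 without Early SAFit2 replicate 4 or Late Vehicle replicate 2, where 5.6 to 9.1% of all genes were called, against 9.1% with all libraries. The median log2 difference of the 44 was 0.16 to 0.25 without each library in turn.

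The genes around these complexes were followed as 6 lists with 75 genes in the table. In the late comparison 14 of the 75 (18.7%) were called higher and 4 (5.3%) lower, beside 5.33% and 6.72% of all genes, at a median log2 fold change of 0.06, beside -0.05 for all genes. The 7 mitochondrially encoded subunits of complex I, which passes electrons from NADH to ubiquinone, were all called higher and made up 7 of the 14, with a median of 0.81, on the side of the members from the same DNA. Genes of that DNA, measured in the same libraries, are not independent of each other, so their share is no count of separate results. Cycs, the somatic cytochrome c that links complexes III and IV, rose by 0.67 ± 0.17 (SE, limma adjusted p = 0.0327). Of the 35 assembly factors that the table holds, 3 (8.6%) were higher and 1 (2.9%) lower, shares near those of all genes, namely Sdhaf3 (0.64), Cox20 (0.70), Slirp (0.94) and Uqcc3 (-0.68), which serve complex II, COX2, mitochondrial mRNA and complex III. With voom 1 of the 35 was called higher and 1 lower, with 11 at a nominal p under 0.05. Of 18 genes of mitochondrial transcription and biogenesis 3 were higher, the methyltransferase-like factor Tfb2m (0.46), the coactivator Ppargc1a (0.47) and the ETS factor Gabpa (0.73), and 1 was lower, the mitochondrial RNA polymerase Polrmt (-0.82). Here voom called 2 of the 18 as higher and 1 as lower. Of 11 genes of coenzyme Q synthesis 0 were higher and 2 lower with limma, Coq8a (-0.51) and Coq8b (-0.83), while voom called 0 with 4 at a nominal p under 0.05. None of the 3 adenine nucleotide and phosphate carriers in the table was called with limma or voom (0 at a nominal p under 0.05 in each).

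The late count over the lists depended on the same libraries. It was 0 without Late SAFit2 replicate 2, 4 or 5 or Late Vehicle replicate 1, 3, 4 or 5, where 1 to 8 of all genes were called. It was 8 higher and 2 lower without Early SAFit2 replicate 4 or Early Vehicle replicate 6, 9 higher and 2 lower without Early SAFit2 replicate 5 or Early Vehicle replicate 2 or 3, and 19 higher and 9 lower without Late Vehicle replicate 6, where 13.2% of all genes were higher and 16.4% lower. With voom 11 were higher and 2 lower, beside 2.9% and 2.3% of all genes. After quantile normalization 6 were higher and 2 lower, beside 3.0% and 4.3% of all genes, and 0 were called after the GC and length trends were removed. Of all genes 0 were called after that removal, 0 with only the 11 late mice and 1 without both libraries with muscle RNA. In the early comparison limma and voom called 0 of the 75 (0 and 1 at a nominal p under 0.05).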

How the data were processed

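mRNA libraries of the dorsal lumbar spinal cord quadrant on the injected side from 22 mice were sequenced, with groups as in the labels (5, 6, 5 and 6 mice). The deposited values are log2 CPM, for which the authors trimmed reads with Trimmomatic, aligned them to mm10 with HISAT2, counted them per gene with featureCounts and scaled library sizes with edgeR (versions not given). Values share a floor of -3.154 for 0 reads. Converted back to reads, 100.0% of the values were whole numbers within a tolerance of 0.02 reads. Depth was 11352989 to 24433349 reads on genes, and low-read genes carry more counting error.

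Tests used limma 3.58.1 in R 4.3.3 with a variance trend, 4 group means, a filter that kept 16765 genes (5 libraries or more at -1 or above) and Benjamini-Hochberg adjustment. The code was tested on simulated data. For single genes, exact permutation tests (two-sided) used all 462 assignments of the 11 mice of a timing, which allow no p below 0.00216. GC content and length came from GENCODE M21 for 16213 of the genes tested, and the trend of each library on both was removed by loess. Gene coordinates and exon overlaps came from GENCODE M21 (GRCm38) and near copies from blastn. Python 3.11.15, numpy 2.4.6, pandas 2.3.3, scipy 1.17.1 and matplotlib 3.10.9 were used.

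Named with values are the mitochondrially encoded members, the Sdh genes, in nuclear complexes III to V the members with the lowest late p in each direction and the highest level per length, all called nuclear members, isoform families, and the lowest p of the early comparison and of the difference. Other named genes were chosen after their values were seen. Members and lists were chosen with earlier results of these data known. Alternatives were other filters, pseudocounts, variance models, weights, scalings, voom, the 11 mice of a timing, a replicate block, GC and length removal and leaving out each library. Chosen after seeing the data were a fit without both libraries with muscle RNA and an uncorrected fit of the genes that have a GC value.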

Additional observations from a re-analysis of the deposited data

Results flagged for a closer look

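In groups of 5 or 6 mice, single samples far from the rest of their group were looked for in 88 groups of values. Chance marks about 1 in 20 groups, and 11 were marked. In Early Vehicle replicate 5, log2 CPM was far above the other 5 mice for COX1 (15.31, others 13.95 to 14.35), COX2 (14.25, others 12.79 to 13.30), COX3 (14.26, others 12.78 to 13.22), ATP6 (14.35, others 12.79 to 13.28), ATP8 (10.93, others 9.03 to 9.69) and Atp5j (8.06, others 6.97 to 7.23). The share of reads on the 6 mitochondrially encoded members was 11.01% in that mouse and 4.33 to 6.28% in the others. These values come from 1 library and are not independent of each other. In Early Vehicle replicate 4, Atp5b was at 10.60 (others 10.15 to 10.27) and the share of reads on the nuclear members at 0.969% (others 0.806 to 0.860%). Sdhc was at 7.20 in Late Vehicle replicate 1 (others 7.01 to 7.06), and Uqcrb was at 7.20 in Late SAFit2 replicate 5 (others 6.59 to 6.76). The cause was not tested for any of them.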

How the results depend on the processing

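The count of called members in the early comparison was 0 under every alternative and without each library. The 8 members called in the late comparison kept their sign under every alternative and without each library, but their calls depended on the setting. Late calls among nuclear and mitochondrially encoded members (4 and 4 as reported) were 0 and 0 without a variance trend, with only the 11 mice of the comparison (fewer mice), after GC and length removal, after that removal with the replicate block, and without both libraries with muscle RNA. Of all genes 62 (0.4%), 0, 0, 0 and 1 were called in these fits in turn, against 2021 (12.1%) as reported. Member calls were 2 and 1 after quantile normalization, where 7.3% of all genes were called. Nuclear calls were 21 with library quality weights, 9 with the replicate block and 2 with voom, where 38.1%, 18.8% and 5.2% of all genes were called (12.1% as reported). Mitochondrially encoded calls were 1 with a pseudocount of 2, where 11.3% of all genes were called. Members called for the early-late difference (0 as reported) were 25 with library quality weights, where 30.3% of all genes were called. Without each library in turn, nuclear late calls ranged from 0 to 17, mitochondrially encoded late calls from 0 to 6 and calls of the difference from 0 to 12.

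The late median of the mitochondrially encoded members (0.78) was 0.090 after quantile normalization, 0.19 after GC and length removal and 0.21 after that removal with the replicate block, and 0.67 to 0.92 without each library. The late median of the nuclear members was 0.01 to 0.09 under the alternatives. Signs turned in single genes that were not called: Sdha (0.034), Sdhb (0.0083) and Sdhc (0.035) after median centring, COX1 (-0.16) and ATP6 (-0.013) after quantile normalization, and Sdhb (0.11 and 0.11) and Cox4i1 (0.11 and 0.11) after GC and length removal without and with the block. Without both libraries with muscle RNA, Sdha was at 0.014 and Sdhc at 0.0054. Without each library, Sdha ranged from -0.059 to 0.013, Sdhb from -0.090 to 0.0024 and Sdhc from -0.042 to 0.0086. For these changes the cause was not tested.

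No pairing of the mice by replicate number was seen in the residuals, though weak correlations cannot exclude one. Residuals of mice with the same number correlated at -0.24 to 0.32, over 0.1 in 2 of 10 pairs, and 1 of 10 SAFit2 mice correlated best with its own number. With the number as a block, 9 nuclear and 5 mitochondrially encoded members were called late. Low-read members such as Sdhd carry more counting error, and the number of mice limits every group mean.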

Other observations

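The balance of the mitochondrially encoded members also differed between early and late mice of both treatments. The log2 CPM of ATP6 minus that of COX1 was -1.23 to -0.96 in the 11 early mice and -0.64 to 0.28 in the 11 late mice, and batch and timing cannot be told apart. The mitochondrial ribosomal RNA genes mt-Rnr1 and mt-Rnr2 had late log2 fold changes of 0.98 (limma adjusted p = 0.0385) and 0.97 (limma adjusted p = 0.0439). Both calls were lost after quantile normalization (0.56 and 0.24) and after the GC and length trends were removed (0.34 for both). At unchanged values they were lost without a variance trend (limma adjusted p = 0.0673 and 0.0694) and with only the 11 late mice (limma adjusted p = 0.0687 for both). They were also lost, at values about as large, without both libraries with muscle RNA (0.98 and 0.97) and, at 0.85 to 0.98, without any 1 of Late SAFit2 replicates 2, 4 and 5 and Late Vehicle replicates 1, 3, 4 and 5. That of mt-Rnr2 was also lost without Early SAFit2 replicate 4 or 5 or Early Vehicle replicate 2 or 6. Fkbp5, which encodes FKBP51, had a log2 fold change of 0.29 late (limma adjusted p = 0.173), of 0.18 early (limma adjusted p = 1) and of 0.23 as the mean of both (limma adjusted p = 0.359). It was not called in any of the 3, and the mean alone was at a nominal p under 0.05 with limma.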
